A study of Saccharomyces cerevisiae with 6 samples.

Results

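The 9 *LYS* genes described here make or control lysine in *Saccharomyces cerevisiae*. The genes were selected by systematic name, but the choice was made with earlier results of these data known. They are *LYS1*, *LYS2*, *LYS4*, *LYS5*, *LYS9*, *LYS12*, *LYS14*, *LYS20* and *LYS21*, and each was found once among the 5705 probe sets (5657 genes) of the table analysed. Yeast F12, a genetically modified strain of industrial background, fermented glucose in YNB medium with ammonium sulfate for 4 h, either without solids (0% IS) or with 40% (w/w) insoluble solids (40% IS), for which glass beads were used. Total RNA of each condition was hybridised to 3 Affymetrix yeast arrays. The inoculum was grown from a single colony in a rich medium, and whether the fermentation medium held lysine is not given in the sources used here. The replicates are described as independent RNA samples, so the p-values measure the spread between these samples, which may be technical where they came from one culture.

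Fungi build lysine by the aminoadipate route, which starts from 2-oxoglutarate and acetyl-CoA and parallels, in its first steps, both the leucine pathway and the citric acid cycle. Homocitrate synthase opens the route by adding the acetyl unit and is inhibited by lysine itself. Homoaconitase then isomerises the product, homoisocitrate dehydrogenase oxidises it with loss of carbon dioxide, and the reductase and saccharopine enzymes complete lysine in the cytosol. Transcription answers to Gcn4, the general activator of amino acid synthesis, and to Lys14, an activator that responds to a pathway intermediate.

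With 40% IS, 4 of the 9 genes rose and 0 fell. The threshold was 0.05 on the limma p, adjusted by Benjamini-Hochberg across the 5705 probe sets. These were *LYS20* for the first step, *LYS4* for homoaconitase, and *LYS9* and *LYS1* for the last 2 steps. The increases ran from 1.38-fold to 1.88-fold. The other 5, including the second homocitrate synthase gene *LYS21* and the activator gene *LYS14*, lay between -0.09 and 0.15 on the log2 scale and did not pass. Over all probe sets, 18.1% were higher and 28.8% lower at this threshold. At an unadjusted p below 0.05 the counts among the 9 genes were again 4 higher and 0 lower, and a plain equal-variance test without limma's shared prior also gave 0 lower.

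The values are the log2 difference and the mean log2 signal that the authors deposited for each probe set. From these the mean of each condition was computed, and the moderated t gave the residual SD, the spread among arrays within a condition. Values of single arrays were not used here, so whether the arrays of the conditions overlap cannot be stated, and the residual SD stands for the spread. The sign of the difference, which the table does not state, was taken to be 40% IS minus 0% IS. Under that choice all 22 genes checked, from pathways the study names as overexpressed or repressed, go the way it names. *LYS1* and *LYS20* are among the genes that the study itself lists as induced on these arrays, so their direction is not independent evidence. RNA came from whole cultures, where a change in every cell and a change in some cells cannot be told apart. The study also reports slower early use of glucose with solids. The presence of solids and the stage of the fermentation at 4 h thus cannot be told apart here.

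The entry into the pathway is served by a pair of isoenzymes, and their genes gave different values. *LYS20* (YDL182W) had a mean log2 signal of 11.35 with 0% IS and of 12.26 with 40% IS, with a residual SD of 0.09. Its log2 difference was 0.91 (95% interval 0.73 to 1.09, n = 3 per condition), a 1.88-fold increase with an adjusted p of 0.00015 by limma. This was the largest change among the 9 genes, and 54 of the 5705 probe sets had a larger increase.

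*LYS21* (YDL131W), which encodes the other homocitrate synthase, stood at 10.97 with 0% IS and 10.99 with 40% IS, and its residual SD was 0.20. The log2 difference of 0.02 had a 95% interval from -0.28 to 0.32 and an adjusted p of 0.902 (limma). An increase of *LYS21* above 1.25-fold lay outside that interval. The intervals of the isoenzyme genes were separated by 0.41, although the difference between them was not itself tested, since that needs the values of the single arrays. These genes are close paralogs, and none of the 9 genes was measured by a probe set whose name marks shared probes.

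**Figure D1:**
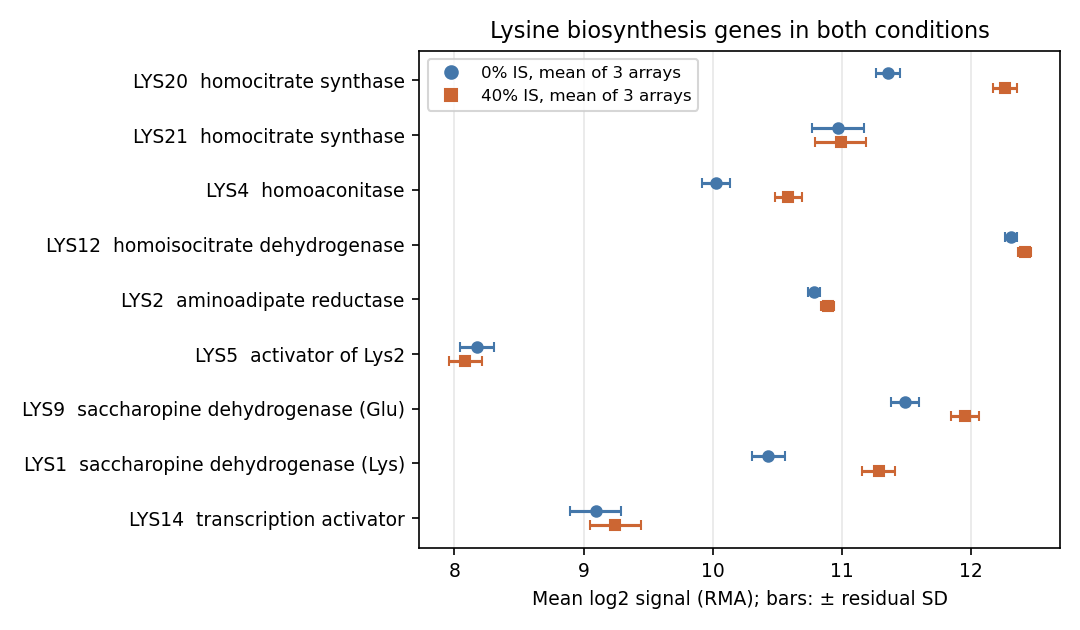
Mean log2 signal (horizontal axis) of the 9 lysine genes, listed in pathway order with the activator gene last, with 0% IS (circles) and 40% IS (squares); bars are the residual SD between arrays of 1 condition. Levels can be compared within a gene only, and the bars of the conditions are apart for *LYS20*, *LYS4*, *LYS9*, *LYS1* and, by a narrow margin, *LYS12* and *LYS2*.

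*LYS4* (YDR234W) encodes homoaconitase, an iron-sulfur enzyme that turns homocitrate into homoisocitrate. Its mean log2 signal went from 10.03 with 0% IS to 10.59 with 40% IS, against a residual SD of 0.11. The log2 difference of 0.56 (95% interval 0.37 to 0.75) corresponds to 1.47-fold and had an adjusted p of 0.00153 by limma. The next enzyme, homoisocitrate dehydrogenase, is encoded by *LYS12* (YIL094C), whose means were 12.31 and 12.41. The residual SD of *LYS12*, 0.05, was small, and the log2 difference of 0.11 (95% interval -0.03 to 0.24) did not pass (adjusted p = 0.184, limma). An increase above 1.18-fold lay outside the interval of *LYS12*. The intervals of *LYS4* and *LYS12*, the genes on either side of homoisocitrate, were 0.12 apart, and that difference was not itself tested.

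The reduction of aminoadipate is carried out by Lys2, a large multidomain reductase that works only after Lys5, a phosphopantetheinyl transferase, has attached its cofactor. *LYS2* (YBR115C) had means of 10.78 and 10.89, a residual SD of 0.05 and a log2 difference of 0.11 (95% interval -0.03 to 0.25, adjusted p = 0.178 by limma). *LYS5* (YGL154C) was the 1 gene with a negative value, with means of 8.18 and 8.09 and a log2 difference of -0.09 (95% interval -0.31 to 0.13, adjusted p = 0.445). Neither gene of the reductase step passed in either direction.

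Both saccharopine dehydrogenases, which finish the pathway in turn, rose. *LYS9* (YNR050C) encodes the enzyme that joins aminoadipate semialdehyde to glutamate, and its means were 11.49 with 0% IS and 11.95 with 40% IS. With a residual SD of 0.11 the log2 difference was 0.47 (95% interval 0.27 to 0.66), or 1.38-fold, at an adjusted p of 0.00345 (limma). *LYS1* (YIR034C), whose product releases lysine from saccharopine, rose from 10.43 to 11.29. Its residual SD was 0.13 and its log2 difference was 0.86 (95% interval 0.64 to 1.07), 1.81-fold, with an adjusted p of 0.000416. The intervals of *LYS1* and *LYS9* overlapped, as did those of *LYS20* and *LYS1*. The order within each of these pairs is therefore not settled by the intervals. The interval of *LYS20* (0.73 to 1.09) lay wholly above that of *LYS9*, a difference that was not itself tested. The interval of *LYS9* began 0.02 above the end of that of *LYS2*.

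*LYS14* (YDR034C), the gene of the pathway's own activator, had means of 9.09 with 0% IS and 9.24 with 40% IS. Its residual SD of 0.20 was exceeded by only 10.3% of all probe sets, and the 95% interval of its log2 difference of 0.15 reached from -0.15 to 0.45 (adjusted p = 0.364, limma). To pass at this spread *LYS14* would have needed an increase of 0.36, and *LYS21* one of 0.37, whereas 0.17 would have been enough for *LYS2* or *LYS12*. The array thus resolved small changes of *LYS2* and *LYS12* better than those of *LYS14* and *LYS21*.

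**Figure D2:**
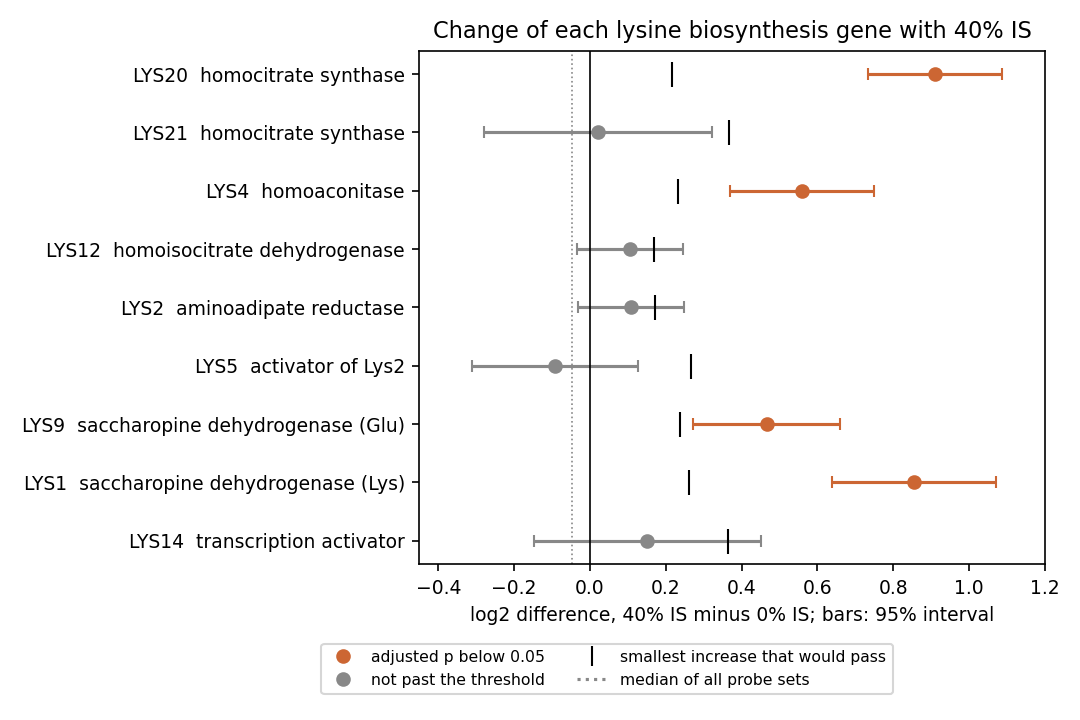
Log2 difference between 40% IS and 0% IS (horizontal axis) of each lysine gene with its 95% interval; short vertical marks give the smallest increase that would have passed at that gene's spread, and the dotted line is the median of all probe sets (-0.05). *LYS20* (0.91), *LYS1* (0.86), *LYS4* (0.56) and *LYS9* (0.47) lie beyond their marks, and the other 5 genes do not.

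The 4 genes passed different thresholds, which by itself does not show that their increases differ. At the stricter adjusted p of 0.001 (limma), *LYS20* and *LYS1* passed, against 3.14% of all probe sets that were higher at this level. The study's methods apply that cut-off to a separate analysis with the Piano software. All 4 genes passed 0.01, against 10.9% of all probe sets. *LYS20*, *LYS1* and *LYS4* also had a log2 difference above 0.5, and 5.10% of all probe sets met both this and the threshold of 0.05. A log2 difference above 1, the other criterion of the methods, was met by 0 of the 9 in either direction at an adjusted p below 0.05 (limma), also with an unadjusted p, and by 2.31% of all probe sets. The 95% intervals of 2 of them, *LYS20* and *LYS1*, reached beyond 1. The median log2 difference of the 9 genes was 0.15, beside -0.05 over all probe sets. Of the 9 genes 8 were above 0, beside 2503 of all 5705 probe sets. Without *LYS1* and *LYS20* the median was 0.11.

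**Figure D3:**
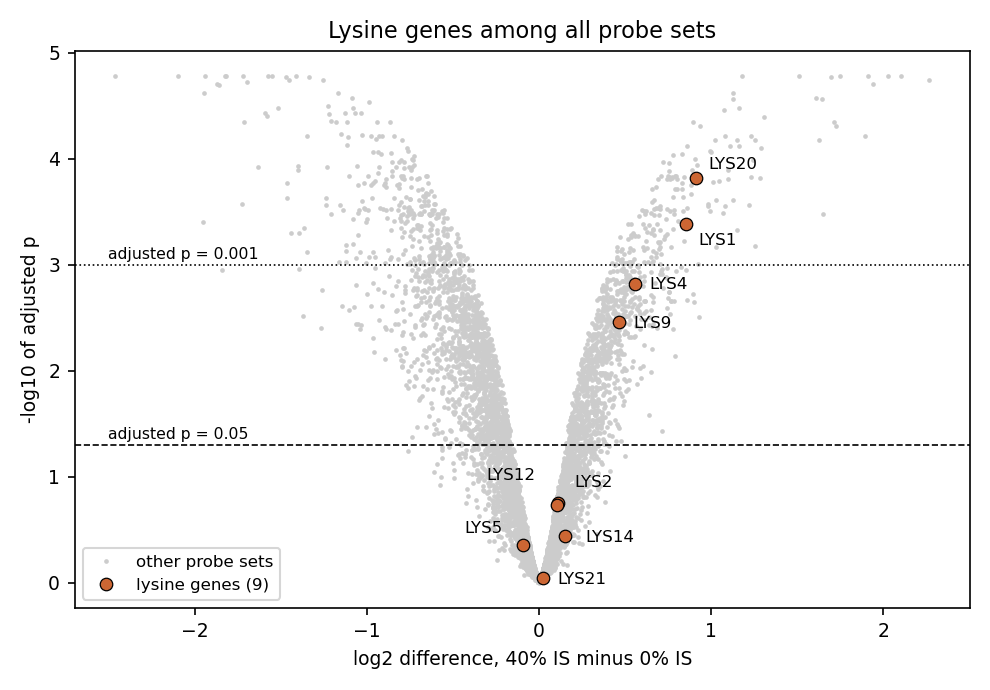
Log2 difference (horizontal axis) against the -log10 of the adjusted p (vertical axis) for all 5705 probe sets (grey) and the 9 lysine genes (large points); dashed and dotted lines mark an adjusted p of 0.05 and 0.001. *LYS20* and *LYS1* lie above the upper line, *LYS4* and *LYS9* between the lines, and the other 5 genes below both.

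Genes outside the *LYS* family serve the pathway as enzymes, carriers, transporters or regulators, and 22 of them were examined. Of these, 10 rose and 0 fell at an adjusted p below 0.05 (limma), with a median log2 difference of 0.21. Over all probe sets 18.1% were higher and 28.8% lower at this threshold, and the median was -0.05. *ACO1* (YLR304C), the aconitase gene of the citric acid cycle, rose by 1.89 (95% interval 1.60 to 2.18). Of the aminotransferase genes, *ARO8* (YGL202W), whose product can form aminoadipate, was at -0.15 and *ARO9* (YHR137W) at 0.00, and neither passed. The mean log2 signal of *ARO9* was 6.49, where the lowest of all probe sets was 6.20. A difference near 0 at such a signal does not show an unchanged transcript. Oxoadipate can cross the mitochondrial membrane on the carriers Odc1 and Odc2. *ODC2* (YOR222W) rose by 0.49, and *ODC1* (YPL134C) was at 0.21 with an adjusted p of 0.144.

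The starting material 2-oxoglutarate comes from citrate through isocitrate dehydrogenase. *IDH1* (YNL037C) and *IDH2* (YOR136W), the subunits of the NAD-linked enzyme, rose by 0.85 and 0.32, while citrate synthase *CIT1* (YNR001C, -0.20) and the NADP-linked mitochondrial *IDP1* (YDL066W, -0.06) did not pass. On the demand side, the cytosolic lysyl-tRNA synthetase gene *KRS1* (YDR037W) was at 0.14 with an adjusted p of 0.215, and its mitochondrial counterpart *MSK1* (YNL073W) rose by 0.45 (adjusted p = 0.00313).

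Of 8 genes for transport of lysine and other basic amino acids, 4 rose and 0 fell, where 18.1% of all probe sets were higher and 28.8% lower. *LYP1* (YNL268W), the specific lysine permease of the plasma membrane, was at 0.07 with an adjusted p of 0.437. The arginine permease gene *CAN1* (YEL063C) rose by 0.50, and its relative *ALP1* (YNL270C) was at -0.03. At the vacuole, where yeast stores basic amino acids, *VBA2* (YBR293W) rose by 0.78, *YPQ1* (YOL092W) by 0.69 and *YPQ2* (YDR352W) by 0.32. *VBA1* (YMR088C, 0.21, adjusted p = 0.0541) and *VBA3* (YCL069W, 0.01) did not pass, and the name of the *VBA3* probe set marks it as one that other genes can share. Mean log2 signals were only 6.77 for *ALP1* and 6.29 for *VBA3*, where the lowest of all probe sets was 6.20. Their differences near 0 therefore do not show unchanged transcripts. The increases of *CAN1* and *YPQ2* were no longer called by the plain equal-variance test (adjusted p = 0.0618 and 0.124).

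Among the regulators, *GCN4* (YEL009C), which is controlled mainly through translation of its messenger, was at 0.21 with an adjusted p of 0.05003, just above the threshold. It was called with a mean-variance trend, without the dimmest probe sets and after centring on the median (adjusted p = 0.0326, 0.0478 and 0.0251). *MKS1* (YNL076W), also known as *LYS80* because its mutants overproduce lysine, was at -0.14 with an adjusted p of 0.0767 and was called lower by the plain equal-variance test alone (adjusted p = 0.0250). *CCS1* (YMR038C), also called *LYS7*, encodes the copper chaperone of superoxide dismutase, and its mutants need lysine in air. It rose by 0.36 (adjusted p = 0.0145, limma), a call that the plain equal-variance test lost (adjusted p = 0.0628).

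**Figure D4:**
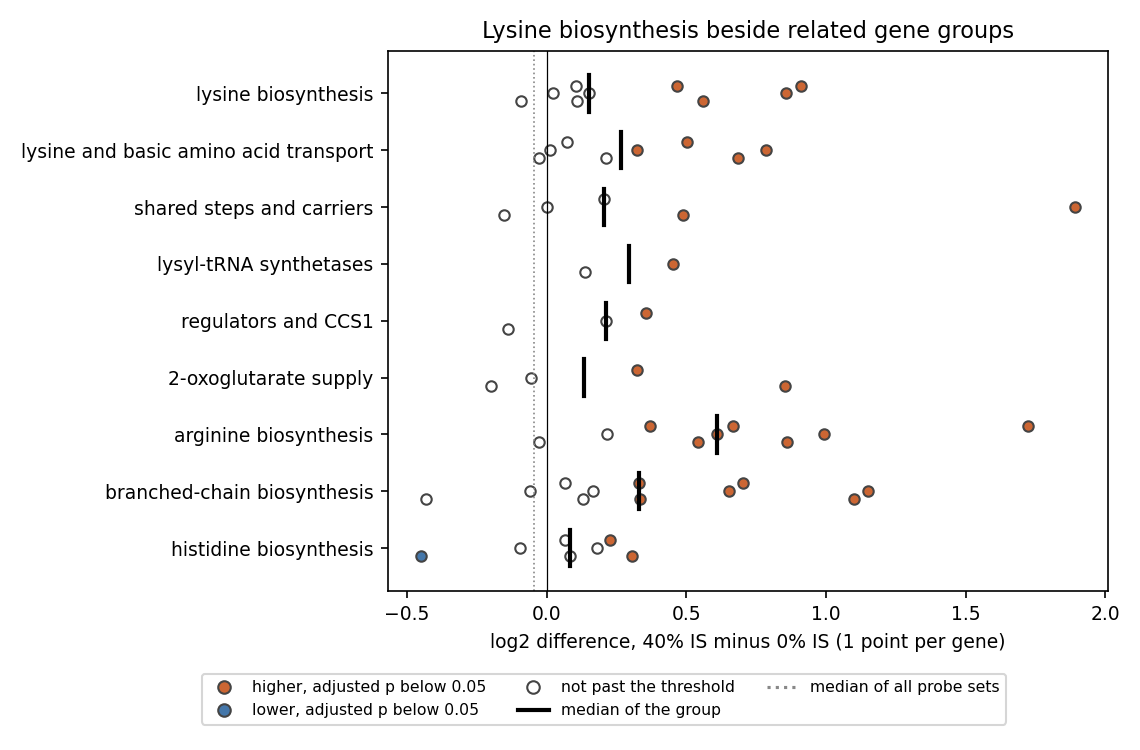
Log2 difference between 40% IS and 0% IS (horizontal axis), 1 point per gene, for the lysine genes, the groups around them and the arginine, branched-chain and histidine pathways; filled points passed an adjusted p of 0.05, thick bars are group medians and the dotted line is the median of all probe sets. Lysine biosynthesis has 4 of 9 genes filled and a median of 0.15, beside 7 of 9 and 0.61 for arginine biosynthesis. Of all probe sets, 18.1% passed as higher and 28.8% as lower.

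Set beside other amino acid pathways on the same arrays, the median of the lysine genes lay between those for arginine and histidine. Of 9 arginine genes, 7 rose and 0 fell, with a median of 0.61 and values from -0.03 (*ARG4*, YHR018C) to 1.72 (*ARG3*, YJL088W). Of 11 genes for leucine, isoleucine and valine, 6 rose and 0 fell, with a median of 0.33 and values from -0.43 (*ILV6*, YCL009C, adjusted p = 0.0656 by limma) to 1.15 (*LEU1*, YGL009C). For 7 histidine genes the median was 0.09, with 2 higher and 1 lower, from -0.45 (*HIS4*, YCL030C) to 0.31 (*HIS3*, YOR202W). At the same threshold 18.1% of all probe sets were higher and 28.8% lower. Whether these amino acid groups differ from lysine, or from all probe sets, was not tested.

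The leucine pathway offers the closest comparison, since its opening enzymes are relatives of those for lysine. The isopropylmalate synthase genes *LEU9* (YOR108W) and *LEU4* (YNL104C) rose by 1.10 and 0.65, so that both synthase genes passed there, whereas for lysine *LYS20* passed and *LYS21* did not. The isomerase gene *LEU1* rose by 1.15, as its counterpart *LYS4* did by 0.56. The dehydrogenase gene *LEU2* (YCL018W) was at -0.06 and its counterpart *LYS12* at 0.11, and neither passed.

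The chromosomal surroundings were compared as a description, with the gene order of RefSeq assembly R64. By their systematic names, 4 of the 9 genes lie on chromosome IV (*LYS4*, *LYS14*, *LYS20* and *LYS21*), of which *LYS20* and *LYS4* rose. Of the 8 genes directly beside the 4 that rose, 2 passed as higher and 1 as lower, with a median log2 difference of -0.03. Beside the other 5 genes, 9 neighbours had a probe set, with 0 higher, 5 lower and a median of -0.45. Over all probe sets 18.1% were higher and 28.8% lower, and the difference between these sets of neighbours was not tested.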

How the data were processed

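RNA of *S. cerevisiae* F12 was measured on 3 arrays per condition (0% and 40% IS, 4 h). The authors normalised the arrays by RMA (Affymetrix Expression Console) and ran limma through Babelomics; versions and genome build are not given in the sources used here. The authors' deposited table holds log2 differences and mean log2 signals, a moderated t (a score without fixed range) and p-values, raw and adjusted. These columns are the authors' own comparison, and the tests planned for values per array were replaced by that limma test. The Benjamini-Hochberg adjustment was recomputed over all 5705 rows. The number of arrays limits the precision.

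Condition means are the mean signal plus or minus 0.5 times the difference. Intervals used 7.58 degrees of freedom, of which 3.58 belong to limma's prior, and residual SDs were recovered by removing that prior. On simulated arrays with 5705 probe sets this returned the SDs with an error of at most 4.41e-10%. There, 200 probe sets were changed, and 99 of 100 differences of 1 and 76 of 100 of 0.5 were called, with 14 false calls. In the data 1031 probe sets passed as higher and 1643 as lower, so these rates do not carry over to the data. Names came from RefSeq R64, in which 5692 rows matched. The 9 genes and all lists were chosen with earlier results of these data known. Named genes are the 9, the 22 related genes, the leucine counterparts, and the extremes of the arginine, branched-chain and histidine groups. The leucine counterparts and the gene neighbours were chosen after their values were seen. Alternatives were a plain equal-variance test, limma's trend and robust options, removal of the dimmest quartile (below 8.03), centring, and other thresholds. R 4.3.3, limma 3.58.1, Python 3.11.15, pandas 2.3.3, numpy 2.4.6 and matplotlib 3.10.9 were used. Promoter sequences were not analysed here, and 1 gene of the related lists is not reported here.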

Additional observations from a re-analysis of the deposited data

How the results depend on the processing

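All 4 increases were called under each of the 5 other models and filters tried (plain equal-variance test, trend, robust prior, removal of dim probe sets, centring on the median of -0.05), with the highest adjusted p over these being 0.00588 for *LYS20*, 0.0112 for *LYS1*, 0.0175 for *LYS4* and 0.0264 for *LYS9*. The other 5 genes passed under none of them; their lowest adjusted p was 0.0702, for *LYS2* after centring. Taking 1 probe set per gene, chosen after seeing the data, also gave 4 higher and 0 lower. All 9 genes had a single probe set and lay above the dimmest quartile. This setting and the removal of dim probe sets could therefore alter only the adjustment of their p-values. The threshold of 0.001 left 2 genes higher, and a minimum log2 difference of 0.5 in place of 1 gave 3. Centring gave a median of 0.20 for the 9 genes. Of the 31 other named genes 9 changed call or direction under some setting. After centring, *ALP1*, *ARO9* and *ARG4*, all near 0, turned to 0.0195, 0.0460 and 0.0190, and *VBA1* was called. No paired analysis was possible because the table holds the comparison and no value of a single array, and for the same reason no replicate could be left out.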

Other observations

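Among the isoenzyme or subunit pairs examined, intervals were apart by 0.41 for *LYS20* and *LYS21*, 0.17 for *IDH1* and *IDH2* and 0.10 for *LEU9* and *LEU4*, while those of *ODC2* and *ODC1* overlapped. *LYS21* was the single gene of the first 3 pairs that did not pass (log2 difference 0.02, adjusted p = 0.902 by limma). The differences within pairs were not tested.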
